A study of Mus musculus with 2 samples.

Results

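The Ifi200 locus on mouse chromosome 1 encodes a cluster of interferon-inducible nuclear proteins, and 8 of its genes, Ifi213, Ifi209, Ifi207, Ifi204, Mndal, Ifi211, Ifi203 and Ifi205, were described in splenic dendritic cells of WT and Batf3-/- mice. These 8 of the 17751 genes in the count tables were chosen by measured values of the same comparison, because several of them differed between the genotypes in many cell clusters. The choice carried no numerical threshold. Their genotype differences are therefore given as a description. A further 5 genes of the locus that the tables hold, Aim2, Ifi206, Ifi214, Ifi208 and Ifi202b, were outside the selection.

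CITE-seq libraries, which read the 3' ends of transcripts cell by cell together with antibody tags, were made from live MHCII+CD11c+ splenocytes after T and B cell depletion. The WT library pooled the spleens of 6 C57BL/6 mice from the Animal Resources Centre. The Batf3-/- library pooled 6 Batf3-/- mice that were obtained from Jackson Laboratories and bred in house. All mice were female, 8 weeks old and carry the strain label C57BL/6. Each genotype is 1 library from 1 experiment, so genotype, source colony and library cannot be told apart and no test between genotypes was possible. The intervals below are 95% intervals that cover counting error only. Levels are unique molecular identifiers (UMIs) of a gene per 1000000 UMIs (CPM), summed over the cells of a cluster in a library. Comparisons used the 17 of 20 deposited clusters that hold at least 30 cells in each library, with C4 and C12 holding 31 Batf3-/- cells each. In bulk sums of this kind, fewer expressing cells and less RNA per cell cannot be told apart.

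The proteins of this family, also called HIN-200 or PYHIN proteins, carry a C-terminal HIN domain that binds DNA, and most also carry an N-terminal pyrin domain that joins them to signalling partners. AIM2 assembles an inflammasome on cytosolic DNA, and IFI204 has been linked to the sensing of intracellular DNA through STING. In the mouse the family expanded by repeated duplication, and its gene content and expression are known to vary between inbred strains. BATF3 is the AP-1 family factor on which conventional type 1 dendritic cells (cDC1) depend.

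By GENCODE M21, on GRCm38, the 8 genes lie between 17.1 and 17.5 Mb from Batf3 on the same chromosome, so they are linked to the targeted gene but are not its neighbours. Batf3 itself occupies chr1:191097847-191108945, while the selected genes run from Ifi213 at chr1:173566283-173599274 to Ifi205 at chr1:174011998-174031810. Ifi209 (chr1:173630917-173647928) is on the plus strand and the other 7 genes are on the minus strand. In order, these are Ifi207 (chr1:173723427-173741747), Ifi204 (chr1:173747293-173766943), Mndal (chr1:173849126-173942491), Ifi211 (chr1:173896345-173913046) and Ifi203 (chr1:173920407-173942672). The annotated Mndal gene spans all of Ifi211 and most of Ifi203 on the same strand, although its exons overlap those of Ifi203 and the gene model Gm38050 by only 155 bases in all.

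The promoters of some of these genes are closely alike. RefSeq promoter sequences on GRCm38.p6, each 250 bases before to 50 bases after a transcription start, were found for 7 of the 8 genes. They were searched on both strands for GAAANNGAAA, the core of the element bound by interferon regulatory factors. Of the 9 promoters of these 7 genes, 7 held the motif, from 6 genes, compared with 3.44% of all 32851 promoters. Among the other locus genes 3 of 5 promoters held it. The following 60-base stretches of the minus strand, shown to compare the genes, have the motif in capitals.
Ifi213, chr1:173599311-173599370: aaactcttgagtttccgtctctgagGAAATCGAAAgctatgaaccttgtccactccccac
Ifi207, chr1:173741816-173741875: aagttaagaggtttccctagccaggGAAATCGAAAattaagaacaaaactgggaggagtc
Mndal, chr1:173880189-173880248: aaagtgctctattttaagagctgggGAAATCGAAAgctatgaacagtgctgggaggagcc
Ifi211, chr1:173913049-173913108: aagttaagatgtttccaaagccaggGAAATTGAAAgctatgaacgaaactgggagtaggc
Ifi203, chr1:173942493-173942552: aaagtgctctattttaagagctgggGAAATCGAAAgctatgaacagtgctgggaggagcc
Ifi205, chr1:174031855-174031914: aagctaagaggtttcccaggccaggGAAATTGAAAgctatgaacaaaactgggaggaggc
The stretches of Mndal and Ifi203 are identical over their 60 bases, and the 2 whole promoters are 90.7% identical in a global alignment. The promoters of Ifi207 and Ifi211 were 85.9% identical. The other 34 of 36 promoter pairs were 49.6% to 60.5% identical, in alignments in which gaps were allowed. The motif began 35 to 73 bases before the start in 5 of the 6 promoters shown. The Ifi205 promoter held it at 2 places, 134 bases before the start and 23 bases after it. A match of these letters is a description and not a measured site.

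Shared sequence also bears on the counts. In GENCODE M21 transcripts, 59.0% of the 91-base windows in the last 500 bases of Ifi211 occur in a transcript of another gene, namely Ifi205 or Mndal. The share was 29.5% for Ifi205, 36.8% for Ifi209, where all shared windows are in Ifi214, 9.12% for Mndal, 7.31% for Ifi213 and 0.972% for Ifi203. No window was shared for Ifi204 or Ifi207. The windows are shorter than the transcript read given in the study's methods, so the shares for whole reads could be lower. A read that maps to more than 1 gene is not counted by the authors' pipeline, so the counts of Ifi211, Ifi205 and Ifi209, and any split between them and their copies, are uncertain, while Ifi204 and Ifi207 are the genes least exposed to this.

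Batf3 was examined first as a check of the labels. It was at 180 CPM in WT and 1.65 CPM in Batf3-/- cells of C0, the immature cDC2a cluster, and its cluster-adjusted ratio was -6.45 on the log2 scale. Batf3 was lower in the Batf3-/- library in 17 of 17 clusters. The WT library held 12224 cells and 122530055 UMIs and the Batf3-/- library 12119 cells and 114517073 UMIs, with medians of 8374.5 and 8516 UMIs per cell. In all, 56 cell barcodes occur in both libraries. The summed cDC1 markers (Xcr1, Clec9a, Cadm1, Tlr3, Naaa, Wdfy4, Itgae and Irf8) reached 4815 CPM in C4, immature cDC1, and 4156 CPM in C6, mitotic cDC1, in WT cells. In the Batf3-/- cells of these clusters they were at 2520 and 1407 CPM, so the C4 and C6 cells of the 2 libraries differed in these markers. The sum is not specific to cDC1, since pDC (C14) were at 3308 and 3227 CPM, of which Irf8, also a pDC gene, made up 2960 and 2996 CPM. The pDC cluster C14 reached 11632 CPM of its markers in WT and the monocyte cluster C15 13094 CPM of its own, beside 11944 and 19551 CPM in Batf3-/-.

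The 8 genes did not move as a block. A cluster-adjusted ratio of Batf3-/- over WT was formed for every gene by weighting the clusters (Mantel-Haenszel), over the 14523 genes with at least 20 UMIs. Ifi204 was higher, at a log2 ratio of 1.19 (1.09 to 1.29), as were Ifi211 at 0.90 (0.81 to 1.00), Mndal at 0.87 (0.84 to 0.90) and Ifi203 at 0.25 (0.21 to 0.29). Ifi213 was lower, at -1.96 (-2.13 to -1.79), as were Ifi205 at -1.18 (-1.25 to -1.10), Ifi207 at -0.44 (-0.51 to -0.36) and Ifi209 at -0.29 (-0.34 to -0.24). The median of the 8 was -0.02, beside -0.00 over all genes. So 1 gene was past 2-fold higher and 2 were past 2-fold lower, where 1.3% of all genes were past 2-fold higher and 2.31% lower. In cells of the deposited G1 phase alone Ifi204 was at 0.87, within 2-fold, Ifi211 at 1.07, past it, and Ifi205 at 0.068. Since the genes were selected on this contrast, nothing is read from that difference.

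The single adjusted values combine clusters that differed. The Sirpa+ clusters as grouped here leave out the low-UMI cluster C9, which the study annotates as Sirpa+ cDC2 (mixed). Over the 9 Sirpa+ cDC2 and Sox4+ clusters alone 3 genes were past 2-fold higher, Ifi211 at 1.75 (1.58 to 1.92), Ifi204 at 1.22 (1.10 to 1.34) and Ifi205 at 1.19 (1.00 to 1.39), and Ifi213 was past 2-fold lower, at -2.09 (-2.28 to -1.91). There 1.18% of all genes were past 2-fold higher and 1.28% lower. Over the cDC1 clusters C4, C6 and C12, a split chosen after seeing the data, Mndal at 1.38 (1.27 to 1.48), Ifi204 at 1.13 (0.88 to 1.38) and Ifi203 at 1.04 (0.90 to 1.18) were past 2-fold higher and Ifi205 at -1.73 past 2-fold lower, where the shares over all genes were 4.73% and 5.88%. Ifi213 was there at -0.76, with an interval of -1.73 to 0.20 that includes no difference. Ifi209 was higher over the cDC1 clusters, at 0.29 (0.18 to 0.41), beside -0.41 (-0.47 to -0.36) over the Sirpa+ clusters.

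**Figure D1:**
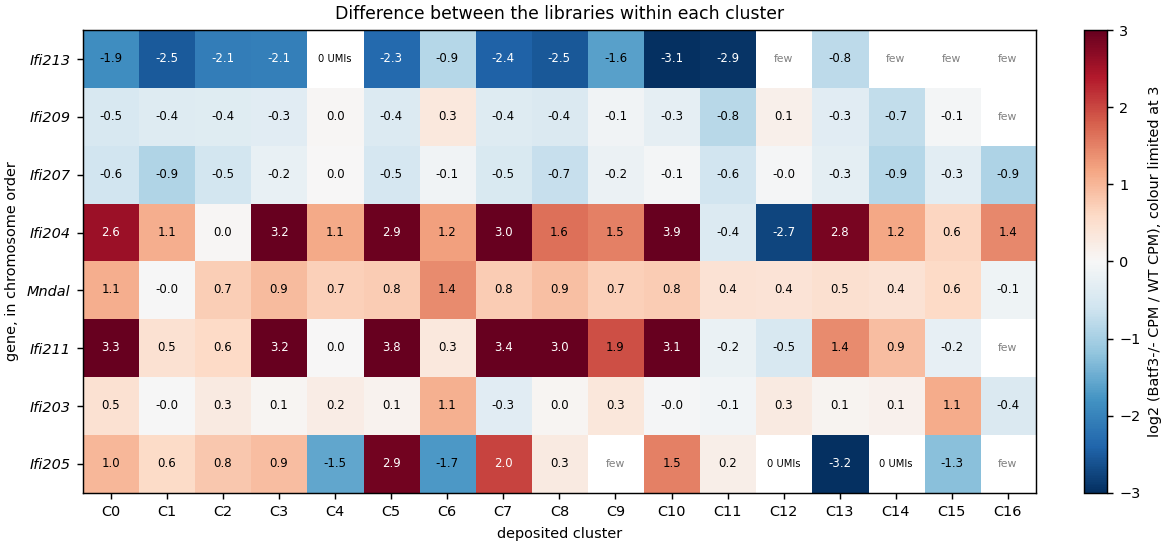
Log2 ratio of Batf3-/- over WT CPM for each of the 8 genes (rows, in chromosome order) in each of 17 clusters (columns); red is higher and blue lower in Batf3-/-, "few" marks fewer than 20 UMIs in both libraries together, and "0 UMIs" marks clusters where the Batf3-/- library had none. Ifi204 and Ifi211 are red in most columns, Ifi213 is blue in every column with a value, and Ifi205 changes colour between the cDC1 clusters C4 and C6 and the cDC2 clusters.

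Within clusters, 128 pairs of a gene and a cluster had at least 20 UMIs, and in 47 of them the summed values were past 2-fold, 29 higher and 18 lower in Batf3-/-, where the share over all gene and cluster pairs was 6.03%. In 3 of the 18 lower pairs the Batf3-/- library held no UMI. Set at a floor of 3 counts per library, Ifi205 in C14 was still past 2-fold, Ifi205 in C12 was at least 1.37-fold lower, and for Ifi213 in C4 the floor lay above the WT level of 2.81 CPM. With the floor, 16 pairs were lower and 45 past 2-fold in all, where the share over all pairs was 5.09%. In C0, where 2.47% of all genes were past 2-fold, 5 of the 8 genes were. In C3, the Sox4+ cDC cluster, 3 were, where the share over all genes was 2.11%. In C6 4 were, where the share was 8.36%. In the cDC1 clusters with 31 Batf3-/- cells the share over all genes was far higher, at 26.9% in C4, where 3 of 8 were past 2-fold, and 18.7% in C12, where 2 of 7 were, each count holding 1 of the genes with no Batf3-/- UMI. The mature cDC2 cluster C1 had 2 of 8, where the share was 3.42%, and the immature cDC2b cluster C2 had 1 of 8, where it was 2.36%. In the other 10 clusters 1 to 4 genes were, where the share ran from 1.88% to 8.18%.

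Mndal, named for its likeness to the human myeloid nuclear differentiation antigen, had the highest level of the 8 genes in both libraries taken whole, at 97.5 CPM in WT and 212 CPM in Batf3-/-. These levels count transcript ends, so gene length does not enter. In C0 it was at 126 CPM in WT and 270 CPM in Batf3-/- cells, in C6 at 64.8 and 173 CPM, and in C3 at 99.5 and 191 CPM. It was higher in Batf3-/- cells in 15 of 17 clusters and past 2-fold in C0 and C6. In C1, the Il4i1+ mature cDC2, the level was the same in both libraries, at 62.2 and 62.0 CPM, and the log2 ratio was -0.00 (-0.19 to 0.19). In the mixed-identity cluster C16 it was at 242 CPM in WT and 220 CPM in Batf3-/-.

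Across the 17 compared WT clusters Mndal ran from 41.1 CPM in C12, the mature cDC1, to 242 CPM in C16. The next highest levels were in mitotic C10 at 238 CPM, in the NK, ILC and T cell cluster C13 at 233 CPM and in pDC (C14) at 222 CPM. In the Batf3-/- library the highest level was in C10, at 402 CPM, and the lowest in C12, at 54.2 CPM. Neither lowest level was set apart beyond counting error, since the interval of C12 ran from 34.1 to 49.1 CPM in WT, where C4 was at 45.1 CPM, and from 30.4 to 89.5 CPM in Batf3-/- (15 UMIs), where C1 was at 62.0 CPM. After thinning to 1000 UMIs, 11.8% (10.7 to 12.95, Clopper-Pearson) of WT C0 cells and 21.1% (19.7 to 22.6) of Batf3-/- C0 cells had a Mndal UMI, and without thinning the shares were 48.5% and 72.5%. The median depths of these C0 cells were 6648 and 7187 UMIs. Cells with fewer than 1000 UMIs, 28 in WT and 42 in Batf3-/- over all clusters, were left out of the thinned shares.

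Ifi203, the gene whose promoter matches that of Mndal, was higher along with it in some clusters and not in others. Its log2 ratio was 1.04 over the cDC1 clusters, resting mostly on C6, beside 1.38 for Mndal, and 0.17 (0.12 to 0.21) over the Sirpa+ clusters, beside 0.85 (0.81 to 0.88). It was at 95.7 CPM in WT and 131 CPM in Batf3-/- cells of C0, and at 40.4 and 85.3 CPM in C6. In C3 the levels were 85.7 and 89.9 CPM and in C10 197 and 191 CPM, with intervals that overlap. In C7, another mitotic cDC2a cluster, it was lower in Batf3-/- cells, at 122 CPM beside 154 CPM. It was past 2-fold in C6 and in monocytes (C15) only, of 17 clusters with 20 UMIs. In C15 it was at 76.8 CPM in WT and 165 CPM in Batf3-/-, beside summed monocyte markers of 13094 and 19551 CPM, and the part of the one in the other was not tested. The C6 cells of the 2 libraries differed too. There the cDC1 marker sum given above was lower in Batf3-/-, while Cd209a was at 14.9 and 139 CPM and Sirpa at 10.7 and 24.2 CPM. The part of these differences in the C6 values of Ifi203, Mndal and Ifi204 was not tested.

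The ratio of Mndal to Ifi203 UMIs within a library needs no scaling between libraries. It had a median of 1.32 over 17 WT clusters, with a range of 1.06 to 2.31, and a median of 2.12 in the Batf3-/- library, with a range of 1.28 to 2.58. It was higher in the Batf3-/- library in 16 of 17 clusters, the exception being C15. In C0 the ratio was 1.32 (1.24 to 1.40) in WT and 2.05 (1.96 to 2.15) in Batf3-/- cells. In C1 it was 2.31 (1.88 to 2.85) and 2.32 (2.05 to 2.63), so this cluster did not differ beyond counting error.

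**Figure D2:**
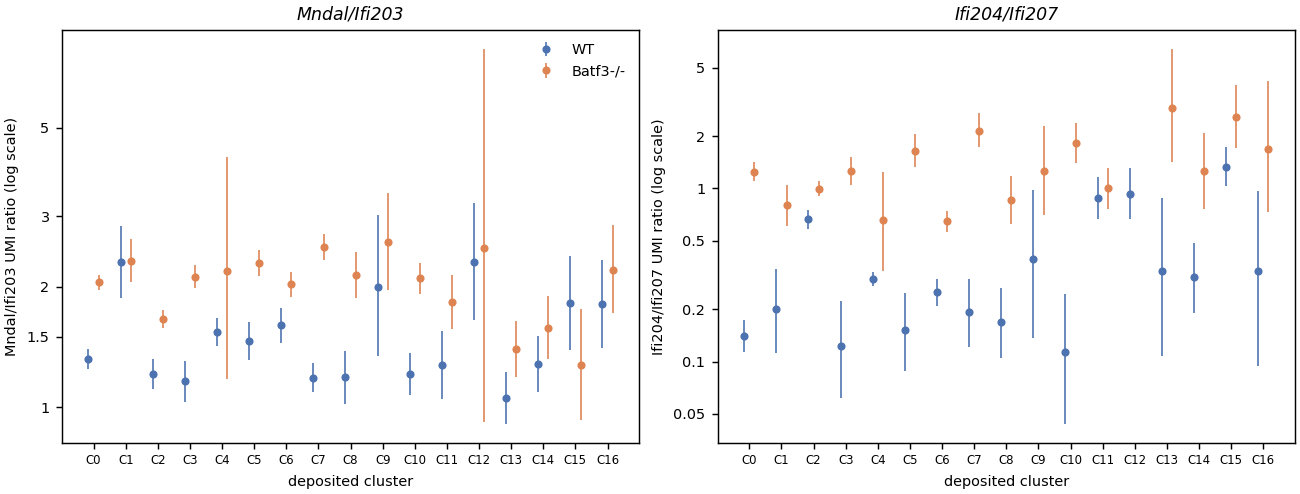
Ratio of Mndal to Ifi203 UMIs (left) and of Ifi204 to Ifi207 UMIs (right) in each cluster on a log axis, for WT (blue) and Batf3-/- (orange), with exact 95% intervals. The Mndal to Ifi203 ratio is higher in Batf3-/- in 16 of 17 clusters, and the Ifi204 to Ifi207 ratio in 16 of the 16 clusters where both libraries had at least 20 UMIs of the pair.

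Ifi204, the family member linked to DNA sensing, was low in most WT cDC2 clusters and higher there in Batf3-/- cells. In C0 it was at 4.45 CPM (97 UMIs) in WT and 26.4 CPM (578 UMIs) in Batf3-/- cells, a log2 ratio of 2.57 (2.26 to 2.90). In C3 it was at 1.94 and 17.3 CPM, and in the mitotic cluster C10 at 2.85 and 44.0 CPM, where the WT level rests on 7 UMIs. The 2 libraries did not differ beyond counting error where Ifi204 was already high in WT cDC2. It was at 48.7 and 50.1 CPM in C2, the cDC2b, with a log2 ratio of 0.04 (-0.14 to 0.22), and at 55.3 and 41.8 CPM in C11, the mature cDC2b.

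Monocytes (C15) held the highest Ifi204 level in both libraries, at 126 CPM in WT and 195 CPM in Batf3-/-, a 1.55-fold difference beside the higher sum of monocyte markers in the Batf3-/- cells of C15, whose part in it was not tested. Of 17 clusters, 15 were higher and 13 of them past 2-fold higher in Batf3-/- cells. The exception past 2-fold was C12, at 24.3 CPM in WT and 3.62 CPM in Batf3-/- cells, where the latter is 1 UMI in 31 cells. The median cluster stood at 6.76 CPM in WT and at 27.8 CPM in Batf3-/-. After thinning to 1000 UMIs, 0.409% (0.218 to 0.699) of WT C0 cells and 3.15% (2.55 to 3.84) of Batf3-/- C0 cells had an Ifi204 UMI, and without thinning 2.64% and 16.8%. No cluster is known to lack the gene. In WT C5 0 of 663 cells thinned to 1000 UMIs had one. Without thinning, at a median of 9919 UMIs, the same cells held 19 Ifi204 UMIs (2.70 CPM).

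Ifi207, next to Ifi204 on the chromosome, moved the other way. It was at 31.5 CPM in WT and 21.1 CPM in Batf3-/- cells of C0, and at 73.2 and 50.2 CPM in C2. It was lower in the Batf3-/- library in 16 of 17 clusters, and no cluster was past 2-fold. In the cDC1 clusters the levels were close, at 54.5 and 55.2 CPM in C4 and 39.8 and 36.7 CPM in C6. Over the 16 clusters with at least 20 UMIs of the pair in each library, the ratio of Ifi204 to Ifi207 UMIs had a median of 0.276 in WT and 1.26 in Batf3-/-. It was higher in the Batf3-/- library in 16 of these 16 clusters. C12, left out for few counts, went the other way, with 72 Ifi204 and 77 Ifi207 UMIs in WT and 1 and 7 in Batf3-/-. Neither gene shares a window at its 3' end with another transcript.

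Ifi213 had the lowest cluster-adjusted ratio of the 8 genes. It was at 22.0 CPM (479 UMIs) in WT and 5.99 CPM (131 UMIs) in Batf3-/- cells of C0, and at 29.6 and 6.98 CPM in C2. In the mature clusters C1 and C8 it was at 5.43 and 16.4 CPM in WT and at 0.948 and 2.82 CPM in Batf3-/-. It was lower in Batf3-/- cells in 12 of the 13 clusters with at least 20 UMIs and past 2-fold in 10, and in C4, with no Batf3-/- UMI, no direction could be read. The 2 lower clusters within 2-fold were C6, at 1.34 and 0.743 CPM, and C13, at 27.1 and 15.6 CPM. The highest WT level was in C2 and the highest Batf3-/- level in C13.

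Ifi209, the gene next to Ifi213, differed less between the libraries in C0 than Ifi213 did. WT clusters had a median of 88.4 CPM and Batf3-/- clusters 71.8 CPM, with the highest level in C12 in both libraries, at 150 and 166 CPM, and the lowest in C16, at 6.76 and 5.36 CPM. In C0 it was at 101 CPM in WT and 72.5 CPM in Batf3-/- cells. In C6 it was higher in Batf3-/- cells, at 68.2 and 85.0 CPM. It was lower in 13 of 16 clusters and past 2-fold in none.

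Ifi211 was low in the cDC2a clusters C0, C5, C7, C8 and C10 of the WT library, at 1.42 to 3.25 CPM, and at 11.5 to 27.6 CPM in the same clusters of the Batf3-/- library. In C0 it was at 1.47 CPM (32 UMIs) in WT and 14.2 CPM (311 UMIs) in Batf3-/- cells. In C5, a mitotic cDC2a cluster, it was at 1.42 and 19.96 CPM, a log2 ratio of 3.81 (2.90 to 4.89), and in C3 at 1.13 and 10.48 CPM. Where it was high in WT the libraries were closer, at 50.8 and 51.0 CPM in C4, 55.1 and 68.3 CPM in C6, 55.6 and 39.8 CPM in C12 and 48.8 and 41.3 CPM in C15. It was past 2-fold higher in 8 of 16 clusters and past 2-fold lower in none.

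Ifi205 had its highest levels in the immature and mitotic cDC1 clusters. In WT it was at 272 CPM in C6 and 180 CPM in C4, followed among the 17 compared clusters by monocytes (C15) at 60.2 CPM, and the median of these clusters was 7.26 CPM. The small clusters C18 and C17, left out of the comparison because they hold 2 and 1 Batf3-/- cells, were above C15 in WT, at 151 CPM (118.8 to 189) and 103 CPM (65.9 to 153). The mature cDC1 cluster C12 was at 14.8 CPM in WT, about the level of C13. In Batf3-/- cells it was at 82.1 CPM in C6 and 61.6 CPM in C4, log2 ratios of -1.73 (-1.83 to -1.64) and -1.55 (-2.13 to -1.02). In C15 it was at 60.2 and 25.2 CPM and in C13 at 15.5 and 1.74 CPM, also lower in Batf3-/-. In pDC (C14) it was at 14.1 CPM in WT and at 0 of 1042481 UMIs in Batf3-/-, at least 4.90-fold lower against the floor of 3 counts. Some cDC1 genes were lower there too, with Xcr1 at 26.3 CPM (41 UMIs) and 0.959 CPM (1 UMI), Naaa at 75.0 and 13.4 CPM and Tlr3 at 17 and 0 UMIs. Clec9a was at 113 and 125 CPM in C14, and the part of cDC1 RNA in the Ifi205 value was not tested.

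In the cDC2 clusters Ifi205 went the other way, though not in all of them. Over the 15 clusters with at least 20 UMIs it was past 2-fold higher in 4 and past 2-fold lower in 5, with C12 (at least 1.37-fold lower) not counted. In C5 it was at 1.85 CPM (13 UMIs) in WT and 13.9 CPM (148 UMIs) in Batf3-/- cells, a log2 ratio of 2.91 (2.09 to 3.85). In C7 it was at 4.10 and 16.6 CPM, in C10 at 4.48 and 12.7 CPM, and in C0 at 3.21 and 6.44 CPM. In the mature clusters C1, C8 and C11 the log2 ratios were 0.58 (-0.50 to 1.81), 0.27 (-0.73 to 1.28) and 0.18 (-0.89 to 1.30), which is within counting error. The low-UMI cluster C9 had 8 WT and 0 Batf3-/- UMIs. The log2 ratio was 1.19 over the Sirpa+ clusters and -1.73 (-1.82 to -1.63) over C4, C6 and C12, so the single adjusted value of -1.18 over all clusters describes neither group of clusters. The 8 summed cDC1 markers in C5 were at 382 CPM in WT and 283 CPM in Batf3-/- cells. Of this, Wdfy4 alone made up 290 and 215 CPM, so the sum there is mostly 1 gene. Xcr1, a defining cDC1 gene, was at 3.70 and 2.34 CPM in C5. In C13 and C15, where Ifi205 was lower in Batf3-/-, the summed cDC1 markers were lower too, at 604 and 259 CPM and at 1569 and 431 CPM, and the part of cDC1 RNA in the Ifi205 values of these clusters was not tested. In C6 the lower Ifi205 level stood beside the lower sum of cDC1 markers given above, and the part of the one in the other was not tested.

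**Figure D3:**
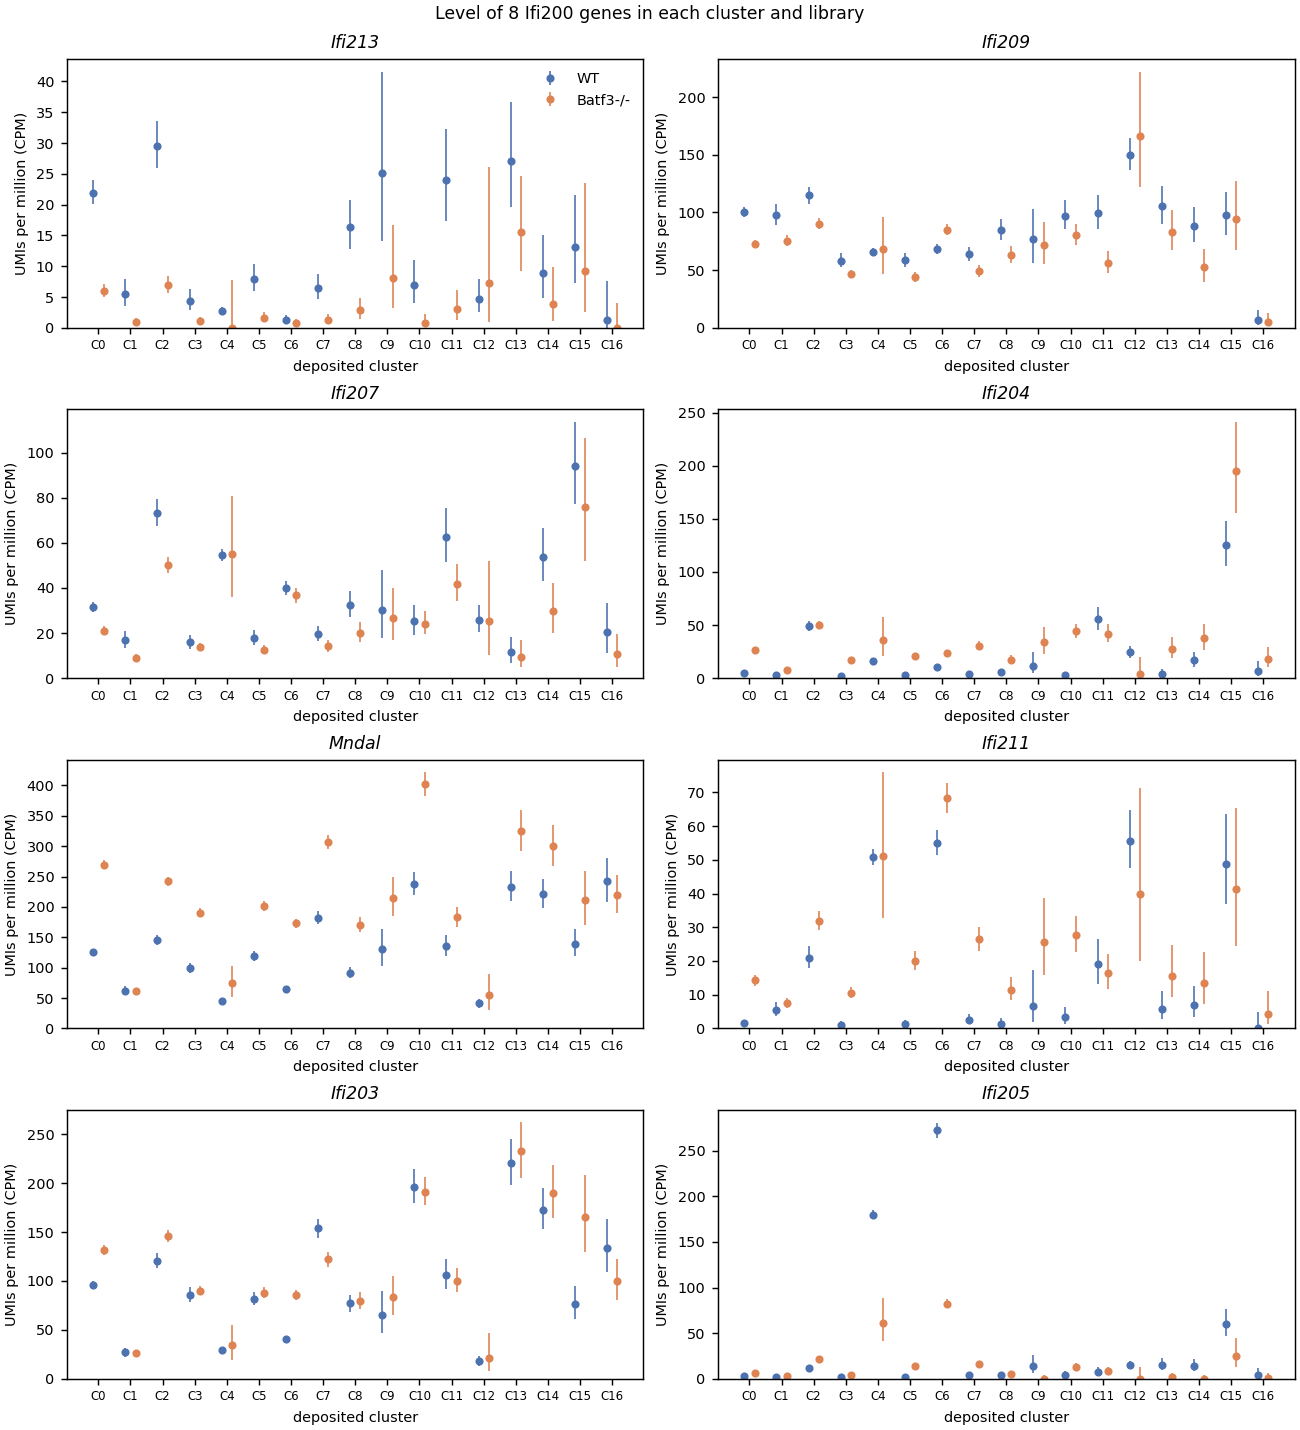
CPM of each of the 8 genes (panels) by cluster (horizontal axis) in WT (blue) and Batf3-/- (orange), with exact Poisson 95% intervals; the vertical scales differ. Mndal in C0 is at 126 CPM in WT and 270 CPM in Batf3-/-, Ifi213 in C0 at 22.0 and 5.99 CPM, and Ifi205 stands out in the WT cDC1 clusters C4 and C6 at 180 and 272 CPM.

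The pattern across WT clusters set the genes apart from each other. Over the 19 WT clusters with at least 30 cells, the gene whose log2(CPM + 1) correlated best with Mndal among 5532 genes was Ifi203, with a Pearson r of 0.98, followed by Ripor2 at 0.91 and Ifnar2, a chain of the type I interferon receptor, at 0.89. In the Batf3-/- library Mndal and Ifi203 had an r of 0.95 over 18 clusters. The gene most like Ifi205 was Xcr1, the chemokine receptor that defines cDC1, at 0.97, followed by Rab7b at 0.95 and Gpr141b at 0.95. In the Batf3-/- library the r of Ifi205 with Xcr1 was 0.68. The 18 Batf3-/- clusters leave out the cDC1 clusters C17 and C18 and include C19, which the 19 WT clusters leave out. The genes were picked for the highest r in WT, so nothing is read from a lower r in the Batf3-/- library. Ifi207 was most like Ifi204, at 0.82, and Ifi204 most like Zfyve9, at 0.89.

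For Ifi213 the closest genes were Rnf213 at 0.91, Foxn3 at 0.89 and Ptprc at 0.87, for Ifi209 Iffo2 at 0.81, Zbp1, itself an interferon-inducible nucleic acid sensor, at 0.75 and Ccl3 at 0.72, and for Ifi211 Psap at 0.89, Sdc3 at 0.88 and Plin2 at 0.86. In the Batf3-/- library the r was 0.46 for Ifi213 with Rnf213 and 0.51 for Ifi209 with Iffo2. For Ifi211 it was 0.80 with Psap and 0.27 with Plin2, for Ifi204 0.55 with Zfyve9 and for Ifi207 0.82 with Ifi204. Each correlation is over clusters of 1 library that share its depth and its free RNA, and the cluster sets of the libraries differ as given above.

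The remaining genes of the locus also moved in different directions. Aim2, the inflammasome sensor, was at a cluster-adjusted log2 ratio of 0.03 (-0.03 to 0.08). Ifi214 was at 0.71, Ifi208 at -1.09 on 131 and 64 UMIs, and Ifi206 at -1.73, lower in Batf3-/- cells in 10 of the 11 clusters with 20 UMIs. Ifi202b, a family member that lacks the pyrin domain and is known to be scarcely expressed in C57BL/6 and abundant in some other inbred strains, was at 0 UMIs in all 12224 WT cells, which allows up to 0.0245% of cells with a UMI at this depth and sets no limit on cells that express it, and at 579 UMIs in 365 (3.01%) of the Batf3-/- cells. That is at least 206.5-fold higher against the floor of 3 counts over the WT library. In C2 it was at 20.8 CPM (319 UMIs) in Batf3-/- cells, at least 57.5-fold higher, in C11 at 17.6 CPM and in C15 at 50.5 CPM. The strain haplotype that the Batf3-/- mice carry at the locus was not tested, and haplotype and genotype cannot be told apart here.

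A gene was set down as differing across clusters when it was past 2-fold in 1 direction in at least 9 of the 17 clusters. This held for 17 of the 9897 genes that had 20 UMIs in at least 9 clusters, or 0.172%, and for Ifi204 (13 clusters, higher) and Ifi213 (10 clusters, lower) among the 8, and the number of genes was 17 with zeros set at the floor too. The 8 genes were chosen for differing in many clusters, so nothing is read from 2 of them meeting this mark. Of the 17 genes, 6 lie on chromosome 1: Batf3, Ifi204, Ifi213, Ifi206, Olfr433 and Itln1. Batf3 is the targeted gene and Ifi204 and Ifi213 were selected, so nothing is read from this number either. Olfr433, an olfactory receptor gene 17.1 Mb from Batf3 and next to Ifi205, was at a log2 ratio of 2.49, and Itln1, an intelectin gene 19.6 Mb from Batf3, was at 0 UMIs in WT and 652 UMIs in Batf3-/- cells. The other 11 genes are on other chromosomes: Ear2, Hic1, Snx22, Fgfbp3, Clec9a, Pdia5, Naaa, Rasgrp3 and Gatm were lower in Batf3-/- cells, and 2610528A11Rik and Cldn1 higher. Clec9a and Naaa are cDC1 markers. In C0 Clec9a was at 6.10 CPM in WT and 2.10 CPM in Batf3-/- cells, beside 325 CPM in WT C4. C4 holds 2202 WT and 31 Batf3-/- cells, and the part of cDC1 RNA in the lower values of these genes was not tested.

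Genes were also counted by their distance from Batf3. Among genes with at least 100 UMIs, 7.28% of the 151 genes lying 5 to 25 Mb from Batf3 were past 2-fold, a share that includes the genes selected for differing, and 3.62% of the 138 genes there were when the locus was left out. The share was 4.76% of the 42 genes within 5 Mb with Batf3 left out, 0% of 95 genes at 25 to 50 Mb, 1.11% of 452 genes beyond 50 Mb and 1.47% of 11632 genes on other chromosomes. With at least 20 UMIs, the minimum used elsewhere, it was 6% of 50 genes within 5 Mb with Batf3 left out. It was then 8.13% of 160 genes at 5 to 25 Mb without the locus and 5.41% of 111 genes at 25 to 50 Mb. Beyond 50 Mb it was 3.90% of 538 genes, and on other chromosomes 3.48% of 13609 genes. The 0% at 25 to 50 Mb thus depends on the minimum. With at least 100 UMIs, the median size of the log2 ratio was 0.17 within 5 Mb, 0.12 at 5 to 25 Mb without the locus, and 0.09 on other chromosomes. These are counts in 1 pair of libraries, with no test.

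**Figure D4:**
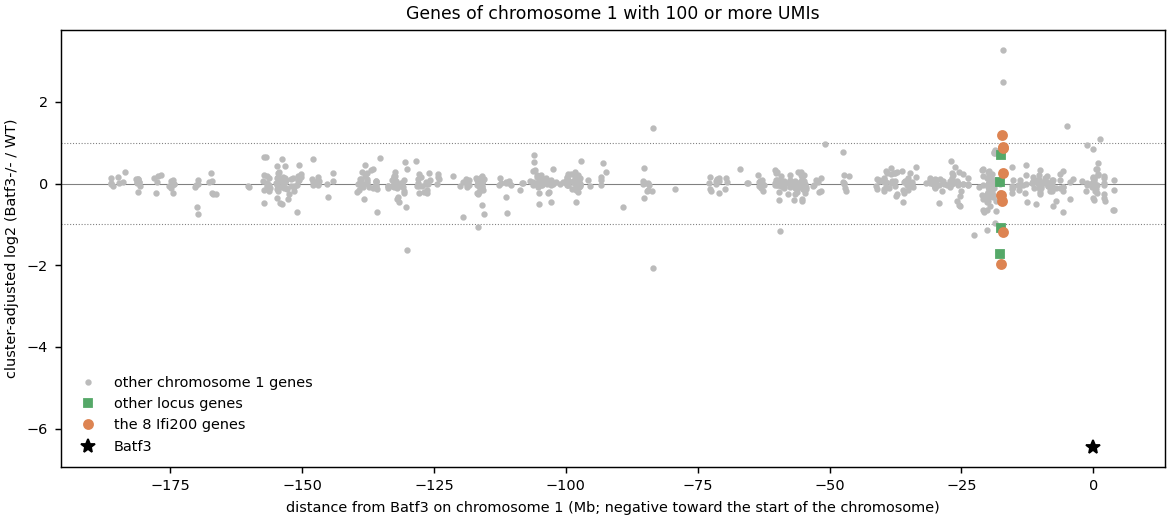
Cluster-adjusted log2 ratio of Batf3-/- over WT for genes of chromosome 1 with at least 100 UMIs and a UMI in both libraries, by distance from Batf3 in Mb; dotted lines mark 2-fold. The 8 Ifi200 genes lie 17.1 to 17.5 Mb from Batf3 and spread from -1.96 to 1.19, with Batf3 itself at -6.45.

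Interferon drives the family, so other interferon-inducible genes were examined. Of the 44 genes of an interferon-stimulated list found in the tables, 13 were higher and 31 lower in Batf3-/-, with a median log2 ratio of -0.10 and 1 past 2-fold, Ifit3b at -1.08. Over all 14523 genes 7117 were higher and 7406 lower, and 525, or 3.61%, were past 2-fold, so 1 of 44 is near the share over all genes. Ifit3 was at -0.79, Ifit1 at -0.62, Oas2 at -0.49, Gbp2 at 0.59 and Gbp5 at 0.47. Of 16 DNA-sensing genes, 13 were higher and 3 lower in Batf3-/-, and none was past 2-fold. Their values ran from -0.16 to 0.33, where Casp1 was at 0.33 and Tmem173, which encodes STING, at 0.31. Of 12 genes of interferon receptors and their signalling, 6 were higher and 6 lower, and none was past 2-fold either. Socs3 was at 0.53, Ifnar2 at -0.26 and Ifnar1 at -0.17.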

How the data were processed

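Per the labels and the study's methods, the authors aligned reads to GRCm38 with Cell Ranger, aggregated the 2 libraries with a depth correction and filtered and clustered cells in Seurat (3.0.5 per the submitters' processing notes, with bcl2fastq 2.2.0). The deposited raw tables hold counts of UMIs per gene and cell. The deposited normalized tables hold the natural log of 1 plus the scaled count and served only to check the row order, with a largest difference of 6.22e-15. Clusters and phases are the authors' own, and the main values keep called doublets. The antibody tables were not used here. With 1 library per genotype no test was made. Levels carry exact Poisson intervals, ratios exact binomial-split or Greenland-Robins intervals, and shares Clopper-Pearson intervals. In simulated Poisson counts with 200 genes changed by 2- or 4-fold, the cluster-adjusted interval covered the true value for 188. Each simulated gene had the same fold in every cluster. The coverage therefore does not carry over to ratios that differ between clusters or to counts bunched in cells. The 8 genes and all gene lists were chosen with earlier results of these data known. All 8 genes are named. Others were named by list (largest adjusted ratio), by the number of clusters past 2-fold, or by likeness over WT clusters (genes with 20 UMIs in every cluster or 50 CPM in 1). Gene positions come from GENCODE M21. The tools were scanpy 1.11.5 (for Scrublet), matplotlib 3.10.9, scipy 1.17.1 and pandas 2.3.3 under Python 3.11.15, with numpy 2.4.6.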

Additional observations from a re-analysis of the deposited data

Results flagged for a closer look

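Ifi205 and Ifi204 were singled out because they moved in opposite directions in different clusters under the same genotype contrast. The difference between the clusters was not tested. This was not particular to them. Ifi209 was at -0.47 (-0.57 to -0.38) in C0 and 0.32 (0.20 to 0.44) in C6. Ifi203 was at 1.08 (0.94 to 1.22) in C6 and -0.33 (-0.46 to -0.20) in C7. For Ifi205 the log2 ratio of Batf3-/- over WT was 2.91 in C5 (13 and 148 UMIs) and -3.16 in C13 (24 and 2 UMIs). For Ifi204 it was 3.95 in C10 (7 and 166 UMIs) and -2.75 in C12, where the Batf3-/- value rests on 1 UMI in 31 cells. The contrast for Ifi205 is also present between C6, at -1.73 on 4261 and 1105 UMIs, and C7, at 2.02 on 27 and 137 UMIs. The WT count in C7 is small.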

How the results depend on the processing

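The 8 cluster-adjusted ratios were recomputed under 10 alternatives, 2 of them (leaving out C4 and C12, and leaving out cells with shared barcodes) chosen after seeing the data. Of these 80 values 68 stayed within the counting interval of the main value, 10 moved outside it and 2 turned the direction. Ifi205 turned to 0.068 in G1 cells and to 1.19 in the Sirpa+ clusters, and was at -1.26 by the mean of per-cell CPM. In G1 cells Ifi204 moved to 0.87, below 2-fold, Ifi211 to 1.07, Ifi207 to -0.58 and Ifi209 to -0.40. In the Sirpa+ clusters Ifi211 moved to 1.75, Ifi203 to 0.17, Ifi207 to -0.53 and Ifi209 to -0.41. Mndal was at 0.91 without C9 and C13 to C16. The number of pairs past 2-fold went from 47 to 24 of 91 with at least 100 UMIs, where higher pairs went from 29 to 20, lower pairs from 18 to 4 and the share over all pairs from 6.03% to 2.46%. The number of genes past 2-fold went from 525 to 191 with 100 UMIs, 1786 with 1 UMI in each library and 1344 at 1.5-fold. Leaving out the 541 WT and 244 Batf3-/- cells that Scrublet called doublets gave 43 of 124 pairs (27 higher and 16 lower), where the share over all pairs was 6.16%, and setting a 0 at the floor of 3 counts, also chosen after seeing the data, gave 45 of 128, where that share was 5.09%. Shares of C0 cells with a UMI followed the thinning. At 2000 UMIs and without thinning they were 21.4% and 48.5% for Mndal in WT, 37.9% and 72.5% in Batf3-/-, 1.04% and 2.64% for Ifi204 in WT, and 4.70% and 16.8% in Batf3-/-. Thinning to 2000 UMIs left out 461 WT and 508 Batf3-/- cells over all clusters. No paired analysis was possible because each genotype is 1 library. Depth limits the ratios in C4 and C12, where the Batf3-/- library held 470604 and 276572 UMIs.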
